A study of Drosophila melanogaster with 3 samples.

Results

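Oxidative phosphorylation is run by 5 protein complexes of the inner mitochondrial membrane, and most of their subunits are encoded in the nucleus. The genes described here are the protein-coding genes of the 6 main chromosome arms whose symbol starts with ND-, Sdh (A, B, C or D), UQCR-, COX or ATPsyn. By this rule there were 87 members among 13945 protein-coding genes: 40 of complex I, 7 of complex II, 9 of complex III, 16 of complex IV and 15 of complex V. Of these, 24 carry a subunit name extended by L (ND-49L, COX4L and the like) and are called L paralogs below, and 63 do not. The symbol rule used no measured value.

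Binding of unpg (unplugged), a homeodomain transcription factor, was mapped by chromatin immunoprecipitation with sequencing (ChIP-seq) in whole embryos of Drosophila melanogaster aged 4 to 16 h. The 1 group, transgenic embryos with GFP fused to the C terminus of unpg, held 3 biological replicates, numbered 3, 4 and 5, and no untagged embryos were analysed here. The descriptions name an anti-GFP antibody, whereas the antibody field names unpg, and chromatin was sonicated to between 200 and 800 bp. Whole embryos hold many cell types, so binding in few cells and weak binding in many cannot be told apart.

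The deposited data were peak lists on dm6: 30000 peaks for each replicate, 30000 for the pooled replicates, and 7176 from the irreproducible discovery rate (IDR) procedure, which selects peaks reproducible between replicates. The lists gave no read counts, so depth is unknown. A summit is the position of a peak's maximum, and a rank orders the peaks of 1 list by the authors' signal value, with 1 the strongest. In each replicate the 7176 strongest peaks were used, as many as the IDR list holds. A gene was counted in either of 2 ways: when a transcription start site (TSS) of it was the nearest to a summit, at most 20 kb away, or when a TSS of it lay within 500 bp of a summit, whichever gene was nearest. A summit within 500 bp is called a promoter summit here. With 1 group there is no contrast to test, and shares are given beside those of all genes.

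As background, complex I takes electrons from NADH and complex II takes them from succinate. Complex III passes them to cytochrome c and complex IV from there to oxygen. Complex V, the ATP synthase, makes ATP from the resulting proton gradient. These genes are active in nearly every cell and are known to be strongly expressed in muscle and other tissues of high energy use, while many of the duplicated subunit genes of flies are known for expression in the testis.

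The sequences at the summits come first. Of the 36 windows of 101 bases at IDR summits nearest to a member, 27 had a GC content below 40%. So had 5925 of the windows at all 7176 IDR summits. Shown are the 101 bases centred on the best-ranked IDR summit of 1 gene per complex, on the strand of that gene, 5′ to 3′, from the Release 6 genome (dm6). Where the best summit of a complex could not be shown, the next was taken. Capitals mark any match on either strand to TAATTA or CAATTA (words bound by many homeodomains), TATAAA (the TATA box), CAGCTG (an E-box), TATCGATA (the DNA replication-related element), GGTCACACT (Motif 1), CATCNCTA (Motif 7), or TTACGTAA, TTATATAA and TTACATAA (forms of the nuclear respiratory gene element). TATAAA and TTATATAA can overlap, and TAATTA and CAGCTG read the same on both strands. The complex I window (chrX:6679315-6679415, minus strand) lay 247 bp upstream of ND-ASHI, an accessory subunit, in an intron of Fum1. The complex II window (chr3R:11209921-11210021, minus strand) lay 122 bp upstream of SdhC, a membrane anchor, in intergenic DNA. The complex III window (chr3L:16567686-16567786, plus strand) lay 986 bp downstream of the start of UQCR-6.4L, in an intron of Mipp1. The complex IV window (chr2L:2199307-2199407, minus strand) lay 1445 bp upstream of COX7AL2, in intergenic DNA. The complex V window (chr3R:23356132-23356232, minus strand) lay 118 bp upstream of ATPsynCF6, a stalk subunit, in intergenic DNA and nearer to the start of Sec13.
ND-ASHI: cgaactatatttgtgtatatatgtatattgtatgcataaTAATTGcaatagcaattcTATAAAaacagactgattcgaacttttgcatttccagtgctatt
SdhC: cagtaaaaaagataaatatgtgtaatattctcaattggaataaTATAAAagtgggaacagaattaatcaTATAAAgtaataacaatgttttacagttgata
UQCR-6.4L: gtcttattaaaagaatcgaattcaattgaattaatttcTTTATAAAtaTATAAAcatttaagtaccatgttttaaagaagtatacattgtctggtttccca
COX7AL2: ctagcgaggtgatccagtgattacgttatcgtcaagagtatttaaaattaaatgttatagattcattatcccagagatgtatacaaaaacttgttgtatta
ATPsynCF6: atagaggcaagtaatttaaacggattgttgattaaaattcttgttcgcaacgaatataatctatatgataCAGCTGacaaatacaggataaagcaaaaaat

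A further 3 windows are shown because they hold a form of the nuclear respiratory gene element, a word described in promoters of fly oxidative phosphorylation genes. All 3 belong to complex I accessory subunits and were chosen after their sequence was seen. ND-42 (chr3R:22027520-22027620, plus strand) and ND-SGDH (chr3L:12138650-12138750, minus strand) have TTATATAA, run together with TATAAA, and ND-MNLL (chrX:7893835-7893935, minus strand) has TTACATAA. Any form of the element was found in 12.5% of the 24 IDR summit windows within 500 bp of a member's TSS, against 2.88% of the 2636 such windows of all genes.
ND-42: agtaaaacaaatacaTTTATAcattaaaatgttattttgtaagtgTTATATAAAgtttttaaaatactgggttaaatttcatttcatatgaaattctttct
ND-SGDH: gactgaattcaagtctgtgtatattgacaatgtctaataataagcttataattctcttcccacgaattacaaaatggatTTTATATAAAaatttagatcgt
ND-MNLL: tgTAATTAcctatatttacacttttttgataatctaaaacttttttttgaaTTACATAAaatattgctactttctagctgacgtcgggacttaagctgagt

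By nearest TSS, the 87 members were bound about as often as other genes in the IDR list and the strongest replicate peaks. An IDR summit was nearest to 26 of the 87 members (29.9%), against 27.4% of all protein-coding genes. The strongest peaks of replicates 3, 4 and 5 gave 22, 25 and 26 members, a mean of 24.3 ± 2.08 (SD, n = 3), where all genes had 28.6%, 28.0% and 28.6%. By complex, the IDR list reached 12 of 40 genes of complex I, 2 of 7 of complex II, 3 of 9 of complex III, 4 of 16 of complex IV and 5 of 15 of complex V. In the IDR list these shares lay between 25.0% and 33.3%, all near that of all genes. Among the strongest peaks of replicates 3, 4 and 5, complex V stood higher, with 5, 7 and 6 of its 15 genes. This was above the share of all genes in each replicate. The means of the other complexes lay between 20.8% and 27.5%, against 28.4% of all genes. With only IDR peaks that overlapped a strongest peak of both other replicates, 16 members (18.4%) were left when replicate 4 or replicate 5 was left out, against 23.1% and 23.2% of all genes. In the stronger 3588 IDR peaks 14 members (16.1%) were left, against 17.6% of all genes. For the 87 members together the differences from all genes were small in these peak sets, and their direction was not the same in each. With weaker peaks included the members stood higher. In all 30000 peaks of each replicate their mean was 60.5% ± 5.43 (SD, n = 3), against 51.9% ± 0.517 of all genes. Within 500 bp of a TSS it was 59.4% ± 6.93, against 46.5% ± 1.37.

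At promoters, the L paralogs and the other members differed. An IDR promoter summit was present at 24 of the 87 members (27.6%), against 22.8% of all genes. It was present at 23 of the 63 members without an L symbol (36.5%) and at 1 of the 24 L paralogs (4.17%). Among the strongest peaks of replicates 3, 4 and 5, promoter summits were found at 21, 25 and 23 members without an L symbol, a mean of 36.5% ± 3.17 of 63 genes (SD, n = 3). The same peaks gave 1, 0 and 1 L paralogs, UQCR-6.4L in replicate 3 and COX7AL2 in replicate 5, while all genes stood at 23.6%, 23.5% and 24.6%. In every replicate the members without an L symbol were above, and the L paralogs below, the share of all genes. The higher share weakened under a stricter choice of peaks. It was 14 of 63 genes (22.2%) when replicate 4 or replicate 5 was left out in the way given above, against 18.5% and 18.4% of all genes, and 16 (25.4%) without replicate 3, against 18.4%. In the stronger 3588 IDR peaks it was 10 of 63 genes (15.9%), close to the 13.8% of all genes.

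**Figure D1:**
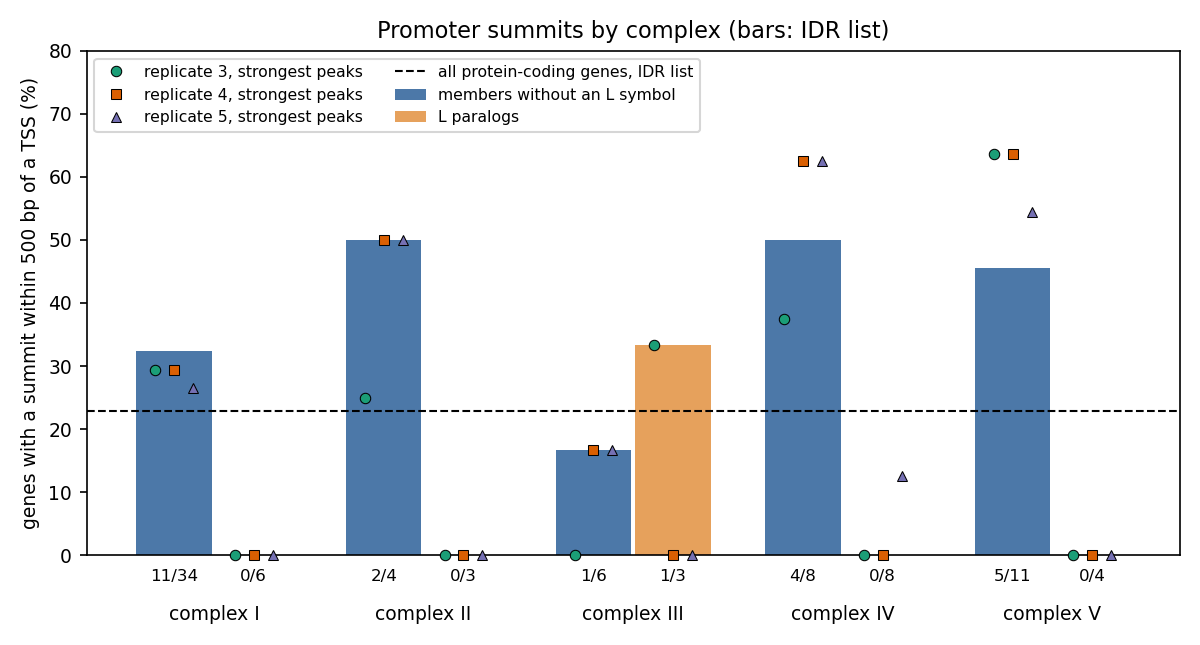
The share of genes with a summit within 500 bp of a TSS (percent, y axis) for the members without an L symbol and the L paralogs of each complex. Bars are the IDR list with the count below each, points are the 3 replicates, and the dashed line is all protein-coding genes at 22.8%; the bars of the members without an L symbol stand at 32.4%, 50%, 16.7%, 50% and 45.5% for complexes I to V, and the L paralogs have a bar in complex III alone.

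Complex I showed the strongest promoter peaks. ND-ASHI (FBgn0029888, X:6677262-6679118) had an IDR summit at rank 414, and ranks of 357, 414 and 534 in replicates 3, 4 and 5. This peak was strong in every replicate, and its summit was 275 bp from the start of Fum1, the fumarase gene of the citric acid cycle on the other strand. ND-51 (FBgn0031771, 2L:6060842-6062757), the subunit that binds NADH, had a summit 100 bp upstream at rank 1080, with replicate ranks of 899, 1337 and 1283. ND-24 (FBgn0030853, X:17632089-17633509), its iron-sulfur partner in the NADH-binding module, had a summit 89 bp downstream of the TSS at rank 1249, with replicate ranks of 1123, 1848 and 1070. Both genes thus carried a promoter peak in all 3 replicates. ND-75, the large iron-sulfur subunit of the same module, had no IDR summit, and its promoter peak in the pooled list was at rank 20400. ND-23, an iron-sulfur subunit further along the path to ubiquinone, had a summit 93 bp upstream at rank 2958 (replicate ranks 3325, 3507 and 2344). ND-20, another, had one 178 bp upstream at rank 7170, close to the end of the IDR list, and at ranks 7496, 9626 and 8870 of the replicates it was in none of their strongest sets. The core subunits ND-49 and ND-30 had none in the IDR list. The other IDR promoter summits of complex I belonged to accessory subunits: ND-MWFE, ND-42, ND-SGDH, ND-MNLL, ND-B22 and ND-B18, at ranks from 584 to 6744.

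Some summits of complex I were far from the gene. ND-B14.7 (FBgn0034576, 2R:21025078-21026086), a membrane-arm subunit, was the nearest gene to 3 IDR summits at ranks 991, 2616 and 4767, which lay 2628, 8970 and 14382 bp downstream of its TSS. The gene has 19067 bp of DNA for which its TSS is the nearest, against a median of 2541 bp for the members and 4328 bp for all genes. No IDR summit nearest to a member fell beyond the 20 kb limit. In the replicate lists the nearest cases to the limit were at ND-B14.5AL, 18433 bp away in replicate 4 and counted, and 20049 bp away in replicate 3 and left out. ND-MNLL had another IDR summit 867 bp downstream at rank 6199. The L paralogs of complex I had no promoter summit in the IDR list. ND-20L was nearest to summits 3720 and 6525 bp downstream, at ranks 3307 and 2971, and ND-24L to one 10099 bp downstream at rank 2832.

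In complex II the summits lay at the membrane anchors. SdhC (FBgn0037873, 3R:11208887-11209849) had its IDR summit at rank 4826, with replicate ranks of 4911, 5065 and 4761. SdhD (FBgn0039112, 3R:23759483-23760600), the other anchor, had a summit 18 bp upstream at rank 6766, with replicate ranks of 9456, 5708 and 6203. The SdhD peak was thus among the strongest in replicates 4 and 5 but not in replicate 3. SdhA, the flavoprotein, and SdhB, the iron-sulfur subunit, had promoter summits in the pooled list but none in the IDR list. None of SdhAL, SdhBL and SdhCL had a promoter summit in the IDR list.

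In complex III 2 of 9 genes (22.2%) had an IDR promoter summit, against 22.8% of all genes, and both summits were in the weaker part of the list. UQCR-Q (FBgn0036728, 3L:17474761-17476124), a small subunit, had a summit 4 bp upstream at rank 6714, and of its replicate ranks of 7802, 9512 and 5721 only that of replicate 5 was among the strongest. UQCR-14 (FBgn0030733, X:16286288-16286988) was nearest to a summit 879 bp upstream at rank 3574, in the 3′ UTR of the neighbouring gene eas. UQCR-6.4L (FBgn0262842, 3L:16566750-16567300) was the only L paralog with an IDR promoter summit, 472 bp upstream at rank 6255. Its replicate ranks there were 6598, 7410 and 8528, so that replicate 3 alone had it among the strongest, and at a limit of 250 bp it was no longer counted. The gene lies within Mipp1, and 3 IDR summits were nearest to it, the strongest at rank 1613. The core subunits UQCR-C1 and UQCR-C2 had promoter summits in the pooled list and none in the IDR list.

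In complex IV, COX7C (FBgn0040773, 2R:10048353-10050066) had the best rank, 489, but the summit lay 1965 bp upstream in an intron of oys. It ranked 559, 499 and 424 in replicates 3, 4 and 5. COX7AL2 (FBgn0085201, 2L:2192525-2197912) was nearest to 5 IDR summits, at ranks 608, 923, 4739, 5388 and 5836, from 533 to 3341 bp from a TSS. None of these was a promoter summit, but that at 533 bp (rank 4739) was close to the limit. In replicates 4 and 5 the summit there lay 456 and 466 bp downstream, at ranks 8124 and 5410. COX7AL2 was thus counted at promoters among the strongest peaks of replicate 5. At promoters, COX5A ranked best at 1837, followed by COX7B (FBgn0040793, 3L:17425477-17426282) at 2648, COX5B at 4432 and COX6B at 4931. These encode small subunits around the core made by mitochondrial DNA. COX7B had its summit 124 bp upstream and replicate ranks of 2799, 3787 and 2326, all among the strongest. The COX6B peak was overlapped by a peak in replicates 4 and 5 but not in replicate 3. The 8 L paralogs of complex IV had no promoter summit in the IDR list.

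Complex V had IDR promoter summits at subunits of the stalks, the rotor and the membrane part. ATPsynCF6 ranked 3889, with replicate ranks of 4450, 3694 and 4242. ATPsyngamma (FBgn0020235, 3R:29747704-29749163), the central shaft, ranked 4606 with its summit 90 bp upstream, and was at ranks 5656 and 5701 of replicates 4 and 5 with no overlapping peak in replicate 3. ATPsynF (FBgn0035032, 2R:24599088-24599821), a membrane subunit, ranked 4718 with its summit 38 bp upstream, and at 4746, 4578 and 9361 in the replicates. ATPsynD, a stalk subunit, and ATPsynC, of the proton-carrying ring, ranked 5897 and 7050. All 5 stood in the weaker part of the IDR list. In the same count by nearest TSS, complex V had no member in the stronger 3588 IDR peaks and 1 member (6.67%) when replicate 4 or replicate 5 was left out. Of all genes, 17.6% had a summit in the stronger peaks, and 23.1% and 23.2% with replicate 4 or 5 left out. Without replicate 3 complex V had 3 members, against 23.1% of all genes. Among the strongest peaks of replicates 3, 4 and 5 complex V stood higher, with 5, 7 and 6 of 15 genes by nearest TSS. The same peaks gave promoter summits at 7, 7 and 6 of its 11 members without an L symbol. Their mean was 60.6% ± 5.25 (SD, n = 3), against 23.9% ± 0.615 of all genes. Of the 11, only 4 had such a promoter summit in all 3 replicates, and 8 had it in at least 1. ATPsynCF6L (FBgn0035585, 3L:5011444-5012133) was nearest to a summit 5550 bp upstream, in an intron of Con, at rank 5031.

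**Figure D2:**
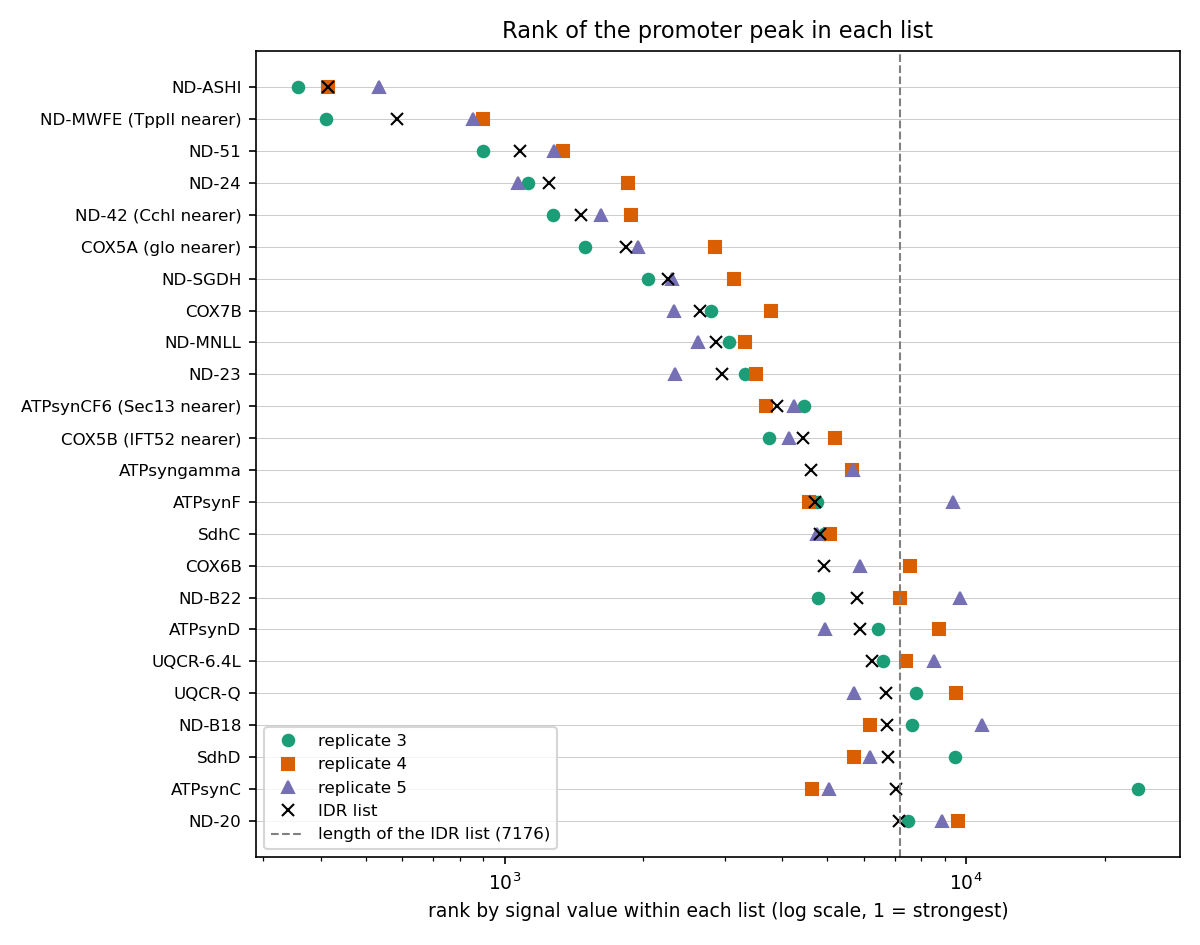
Rank by signal value (x axis, log scale, 1 = strongest) of the peak at each of the 24 members with an IDR summit within 500 bp of a TSS, in the 3 replicates and the IDR list. A replicate point is the overlapping peak; the dashed line is at 7176, the length of the IDR list, and 13 of the 24 members have all 3 replicate points left of it, while ATPsynC reaches rank 23556 in replicate 3.

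Of the 24 promoter peaks, 22 were overlapped by a peak in all 3 replicate lists and 13 by one of the strongest in all 3. Over the 22, the SD of its distance to the TSS was between 2.31 bp (ATPsynF) and 45.6 bp, with a median of 22.5 bp. ND-51 had its summit 109, 103 and 91 bp upstream in replicates 3, 4 and 5. ND-MNLL had it 103, 87 and 95 bp upstream. Replicate peaks were taken by their overlap with the IDR peak, so their summits had to lie near it. At ATPsynC the overlapping peak of replicate 3 ranked 23556, while a stronger peak of that replicate, at rank 5254, had its summit 280 bp upstream.

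**Figure D3:**
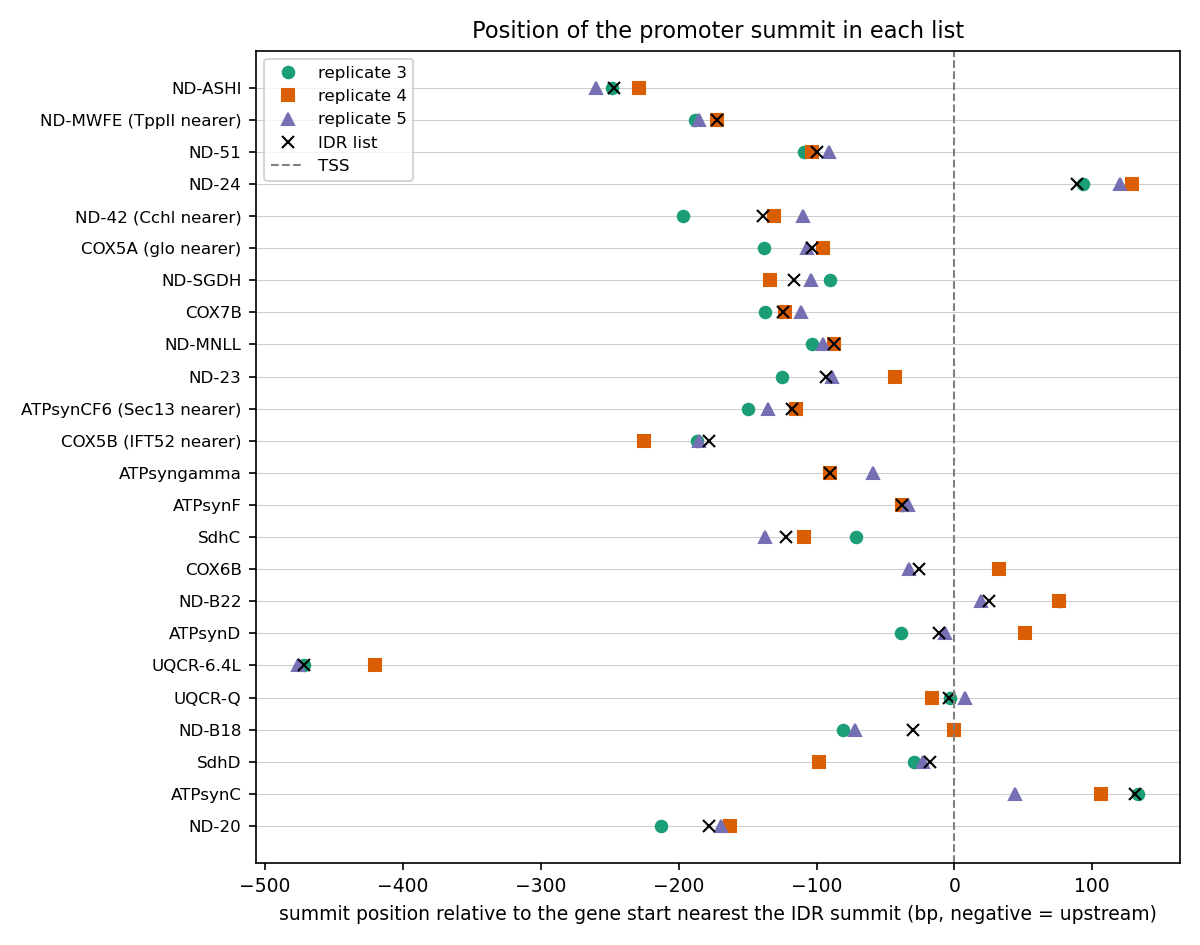
Distance of the summit from the TSS nearest the IDR summit (x axis, bp, negative upstream) for the same 24 members in the same order, in the 3 replicates and the IDR list. Replicate points are peaks that overlap the IDR peak, and most lie upstream within 250 bp; ND-24, ND-B22 and ATPsynC have IDR summits downstream of the TSS, and UQCR-6.4L stands apart at 472 bp upstream.

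IDR summits assigned to members without an L symbol were mostly close to gene starts. Of the 36 IDR summits nearest to a member, 19 (52.8%) were within 500 bp of the TSS, against 38.3% of the 6875 assigned summits of all genes. The strongest peaks of the 3 replicates gave 53.3%, 54.5% and 57.6%, a mean of 55.2% ± 2.19 (SD, n = 3). The share was 38.9% in the pooled list and from 40.9% to 45.8% with 1 replicate left out. No share of all genes is given for these other peak sets. For members without an L symbol the IDR count was 18 of 24 (75%) and for L paralogs 1 of 12 (8.33%). Upstream positions made up 16 of the 19 (84.2%), against 78.2% for all genes, and the median position was 87.0 bp upstream, against 114 bp. Of the member summits, 20 were intergenic, 7 in introns, 7 in a 5′ UTR, 2 in a 3′ UTR and none in coding sequence. These places were not counted for the summits of all genes. The median rank of the member summits was 4662, against 3550 for all genes. Among the strongest 1794 were 8 of the 36 (22.2%), against 25.5% for all genes. The DNA nearest to the TSS of a gene moved with these shares. Its median length was 2296 bp for members without an L symbol, 4824 bp for L paralogs and 4328 bp for all genes, and its part in the shares was not tested.

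Many of these promoters are shared with a gene on the other strand. At 5 members the promoter summit was nearer to the partner than to the member: ND-42 with Cchl, ND-MWFE with TppII, COX5A with glo, COX5B with IFT52 and ATPsynCF6 with Sec13. Cchl encodes the enzyme that attaches heme to cytochrome c, and TppII a peptidase. glo encodes an RNA-binding protein, IFT52 a protein of transport along cilia, and Sec13 a component of the COPII coat of vesicles. ND-42 (FBgn0019957, 3R:22027709-22029393) had an IDR rank of 1465 and replicate ranks of 1275, 1877 and 1621. ND-MWFE (FBgn0085468, 2R:13158666-13160190) had an IDR rank of 584 and replicate ranks of 411, 898 and 853. COX5A (FBgn0019624, 3R:11819359-11820299) had replicate ranks of 1493, 2863 and 1950. All 3 were among the strongest peaks in every replicate. Which gene of a pair such a summit concerns cannot be told from its position.

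An opposite-strand TSS lay within 500 bp of a TSS in 37 of the 63 members without an L symbol (58.7%) and 3 of the 24 L paralogs (12.5%), against 27.8% of all genes. Among genes with such a partner, 18 of 37 members without an L symbol (48.6%) had an IDR promoter summit, against 39.5% of all genes. Among genes without one, 5 of 26 (19.2%) had it, against 16.4% of all genes. Over the 3 replicates the values were 53.2% ± 4.13 against 42.5% ± 1.52 with a partner, and 12.8% ± 2.22 against 16.8% ± 0.682 without one (SD, n = 3). Members and other genes alike thus had more promoter summits where 2 starts were close. Where a partner was present, the members stood above all genes in the IDR list and in the replicate mean. Without a partner the members were close to all genes, and their counts were small: 5 of 26 in the IDR list and 3, 4 and 3 in the replicates.

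**Figure D4:**
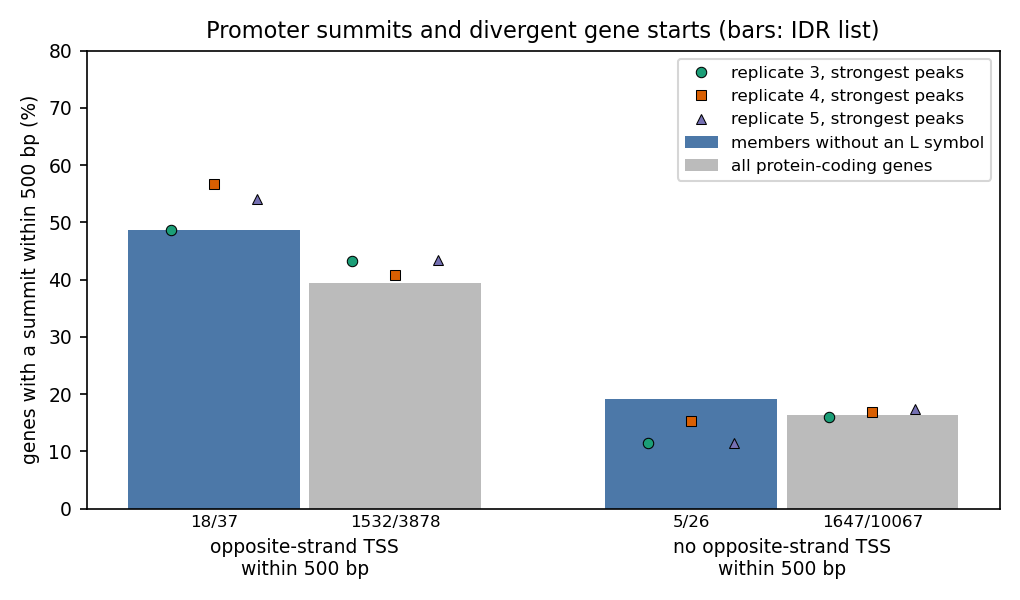
The share of genes with a summit within 500 bp of a TSS (percent, y axis) with and without an opposite-strand TSS within 500 bp, for members without an L symbol and for all protein-coding genes. Bars are the IDR list with counts below, and points are the strongest peaks of each replicate; both kinds of genes have higher bars with a partner, at 48.6% and 39.5%, than without one, at 19.2% and 16.4%.

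The L paralogs were set beside the genes whose names they extend. The 24 paralogs correspond to 21 such genes, among them levy, cype and sun. An IDR promoter summit was present at 8 of the 21 and at 1 of the 24 paralogs, while all genes stood at 22.8%. ND-24, ND-51, SdhC, COX5B and ATPsynCF6, for example, had one and their paralogs had none, whereas UQCR-6.4L had one and UQCR-6.4 did not. The 8 include ND-20, whose peak was in no replicate's strongest set. Fewer L paralogs than other members had an opposite-strand TSS within 500 bp (12.5% against 58.7%), and its part in this difference was not tested. No summit of any of the 5 lists was assigned to, or lay within 500 bp of, 13 of the 24 L paralogs and 4 of the 63 other members. The shares were 54.2% and 6.35%, against 32.1% of all genes. The 4 were ND-18, ND-19, ND-MLRQ and UQCR-11.

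The pooled list added weaker promoter peaks to 1 side only. It had promoter summits at 43 of the 63 members without an L symbol (68.3%) and at 1 of the 24 L paralogs (4.17%), against 41.8% of all genes. The 20 members gained over the IDR list included SdhA, SdhB, UQCR-C1, UQCR-C2, ATPsynG and ATPsyndelta. By nearest TSS the pooled list reached 45 of the 87 members (51.7%), against 45.9% of all genes. This list runs down to a -log10 q-value of 0.359, so part of it has little support. The full lists of replicates 3, 4 and 5 did reach more L paralogs, with promoter summits at 2, 4 and 3 of the 24. They had them at 44, 47 and 55 of the 63 other members, while the mean of all genes was 46.5%.

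ATPsynE (FBgn0038224, 3R:14326947-14327735), a membrane subunit of the ATP synthase, was missing from both combined lists. It had a promoter peak at ranks 2216, 3583 and 2290 of replicates 3, 4 and 5, with the summit 0, 63 and 12 bp upstream. These were strong peaks in each replicate, yet no pooled peak overlapped them. Such cases were rare: of the strongest peaks that the 3 replicates shared, 64 of 5084, 63 of 5132 and 64 of 5123 had no pooled peak in replicates 3, 4 and 5, and ATPsynE was the only member promoter among them. ATPsynbeta, the catalytic subunit, also had a strongest peak in each replicate within 500 bp and no pooled summit there. In replicate 3 the summit (4:1031018) lay 466 bp upstream of 1 TSS, in an intron of CG11076 and nearer to the start of that gene. In replicates 4 and 5 the summits (4:1031894 and 4:1031962) lay 30 and 98 bp downstream of another TSS of ATPsynbeta. The replicates thus did not share 1 position. ATPsynO and ATPsynB had promoter summits in all 3 replicate lists too, at best ranks of 6578 and 8380, and none in the pooled list.

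Base composition at member summits was low in GC, as at all summits. The median GC content of the 101 bp windows was 28.7% for the 36 member summits, against 29.7% for all IDR summits. Within 500 bp of a TSS it was 27.7% for the 24 member windows, against 31.7% for all genes. The 3 replicates gave medians of 29.7%, 27.7% and 27.7% (28.4% ± 1.14, SD, n = 3). The range was wide, from 15.8% at ND-23 to 65.3% at an intronic summit of COX7AL2. The promoters themselves were taken as the 300 bases from 250 before to 50 after the outermost 5′ end of each gene. They had a median GC content of 34.0% in members and 38.0% in all genes. In a gene with more than 1 TSS, a promoter summit can lie at a TSS outside these 300 bases.

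Among core promoter words, Motif 1 stood out in the members' 300-base promoters. GGTCACACT was found in 22.2% of the promoters of members without an L symbol and 4.17% of those of L paralogs, against 6.05% of all promoters. It was present in 26.1% of the 23 with an IDR summit and 20% of the 40 without one. Of all promoters with an IDR summit, 9.25% had it. For these shares the summit was counted at any TSS of the gene, while the 300 bases were those at its outermost 5′ end. At the summits themselves Motif 1 was found in 1 of 24 windows, that of UQCR-Q, whose 300-base promoter lacked it. CAGCTG was found in 30.2% of the promoters of members without an L symbol, against 17.7% of all, and TATAAA in 61.9%, against 45.8%. In summit windows CAGCTG was in 3 of 24 (12.5%), against 3.91% for all genes. TATCGATA and CATCNCTA stood at 14.3% and 11.1%, against 9.36% and 6.42%. The homeodomain words TAATTA and CAATTA stood at 25.4% and 30.2%, against 20.4% and 25.2% of all promoters, and were found in 12.5% of the member summit windows each, against 10.8% and 10.2%. Any form of the nuclear respiratory gene element was in 7.94% of these promoters, against 5.18%. GC content differs between the members' promoters and all promoters, and its part in these shares was not tested.

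Other genes of the pathway were read from fixed lists. Of 6 subunit genes under other symbols, 3 had an IDR promoter summit: blw, the alpha subunit of the ATP synthase, at rank 1638, and levy and cype, of complex IV, at ranks 3191 and 4417. RFeSP, the iron-sulfur subunit of complex III, was nearest to 5 IDR summits, none at its promoter. Both cytochrome c genes had one, Cyt-c-d at rank 117 (118, 123 and 121 in the replicates) and Cyt-c-p. The best rank of Cyt-c-p by nearest TSS was 891, 937 bp downstream. Of the citric acid cycle, 4 of 10 genes had one, with Idh3g, a subunit of isocitrate dehydrogenase, at rank 88 (109, 73 and 75 in the replicates). Among the 4, Fum1 was counted through the peak already given for ND-ASHI. Of 5 assembly factors matched, Cox10 and Cox17 had one. Of 5 genes for mitochondrial DNA maintenance and expression, mtSSB had one. None of the 3 regulators srl, ewg and Ets97D had one, and all genes stood at 22.8%.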

How the data were processed

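Per the labels, ChIP-seq was made from GFP-tagged unpg embryos in 3 biological replicates of 1 group. Per the file descriptions, the authors called peaks on each replicate and on the pooled replicates against 1 shared control, which was not analysed here. Neither the aligner nor the caller is named, and the IDR cutoff is not stated, in any source used here. The signal value of each peak is the authors' own and served only to rank peaks within a list. The deposited -log10 q-value was not used to rank. Ranked by signal, the first 7176 pooled peaks were exactly the peaks of the IDR list.

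Summits were assigned to the nearest TSS of any protein-coding transcript (Ensembl release 115), at most 20 kb away, a tie counting for each gene, with Python 3.11.15, numpy 2.4.6 and matplotlib 3.10.9. The assignment was checked on planted summits. Sequences came from the RefSeq copy of the Release 6 genome. Windows that overlapped a UTR were not printed, and none from 2R. Coordinates are 1-based. The deposited lists carry no read counts, so neither depth nor counting intervals are known, and with 1 group no p-value is given. The text names the 3 members of each complex with the best-ranked IDR summit, those with 2 or more IDR summits, and those with a strongest peak in all 3 replicates but none in the IDR list. Other members are named with their counts. Members and lists were chosen with earlier results of these data known. Alternatives changed the peak set, distance, assignment, windows and replicates. Of the list symbols, Cox15 and Polrmt were not matched.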

Additional observations from a re-analysis of the deposited data

How the results depend on the processing

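The count of 26 members by nearest TSS was 14 in the stronger 3588 IDR peaks (16.1%, against 17.6% of all genes). It was 45 in the whole pooled list (51.7%, against 45.9%). With 1 replicate left out it was from 16 to 19 (18.4% to 21.8%, against 23.1% to 23.2%). Members without an L symbol with an IDR promoter summit numbered 23. They were 10 in the stronger 3588 peaks (15.9%, against 13.8% of all genes), 43 in the pooled list (68.3%, against 41.8%), and from 14 to 16 with 1 replicate left out. L paralogs with one numbered 0 at 250 bp, 2 (8.33%) at 1 kb, 0 in the stronger 3588 peaks and 0 without any 1 replicate. All genes stood at 18.1%, 26.6%, 13.8% and from 18.4% to 18.5% there. These promoter counts were alternatives chosen after seeing the data. Leaving out a replicate keeps fewer peaks by its own construction. The mean over replicates was 52.7 with all deposited peaks (60.5%, against 51.9% of all genes), 15 with the stronger part (17.2%, against 17.7%), and from 23.5 to 25.5 with 1 replicate left out. The share of member summits within 500 bp was 50% at 250 bp, 66.7% at 1 kb, 38.9% in the pooled list, and from 40.9% to 45.8% with 1 replicate left out. Median GC was 32.3% within 100 bp of the summit, 38.6% in the pooled list, and from 25.2% to 26.2% with 1 replicate left out. Read in summit windows in place of promoters, the word shares were 0% for TATCGATA, 4.17% for GGTCACACT and 29.2% for TATAAA, against 2.31%, 1.59% and 24.4% for all genes. The E-box word and both homeodomain words then stood at 12.5% each, against 3.91% for the E-box word and 10.8% and 10.2% for TAATTA and CAATTA. The cause was not tested. Limits set by depth cannot be stated from peak lists.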
